A study of Mus musculus with 9 samples.

Results

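The genes described are 10 members of the oxidative stress response, measured in mouse liver: Osgin1, the transcription factor gene Nfe2l2 and its inhibitor Keap1, and 7 genes that NRF2 is known to switch on, Nqo1, Gclc, Gclm, Hmox1, Srxn1, Txnrd1 and G6pdx. They were picked by symbol from a table of 61473 features, of which 55414 are Ensembl genes. Each symbol matched 1 row, and all 10 passed the filter that left 12860 genes for testing, a mean of at least 1 TPM (transcripts per 1000000) over all libraries. The livers came from wild-type NSG mice, an immunodeficient strain that lacks T, B and natural killer cells. Into the tail vein the animals received either phosphate-buffered saline (PBS) or extracellular vesicles (EVs), the small membrane particles that cells shed, for 5 weeks. The EVs came either from MCF-10A, a human line of breast epithelium that forms no tumours, or from MDA-MB-231, a line of human triple-negative breast cancer. Each of the 3 groups has 3 libraries, and the design asks how liver expression differs between them. Differences between the EV groups are MDA-MB-231 EV minus MCF-10A EV throughout, so a positive value is higher after the cancer cells' EVs. The labels give no age or dose and do not say that each library came from a separate mouse, so p-values reflect the spread among these samples, which may be technical.

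NRF2, the protein of Nfe2l2, is made continuously and is marked for destruction by KEAP1, which ties it to a ubiquitin ligase built on CUL3 and RBX1. Electrophiles and oxidants modify KEAP1, NRF2 then escapes, pairs with small MAF proteins and binds antioxidant response elements near its target genes, where the repressor BACH1 competes with it. Its targets make glutathione, reduce thioredoxin, supply NADPH, degrade heme and detoxify quinones. Osgin1, the oxidative stress induced growth inhibitor 1 gene, is itself a known NRF2 target. NRF2 is controlled largely as a protein, so the level of its mRNA is not a measure of its activity.

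The antioxidant response element is a short DNA word, and the windows that hold it are shown first, to set out which members carry it close to a start and which do not. Promoters of 250 bases before to 50 bases after a transcript start were taken from RefSeq (GRCm38.p6), which lists 10 starts for 8 of the members. Both strands were searched for TGACNNNGC and for TGAGNNNGC, words that share their first 3 and last 2 bases but cannot overlap each other at the same position. The word TGAGNNNGC was added after the Osgin1 promoter had been seen. At least 1 of them stands in 6 of these 10 starts, and in 27.8% of all 32851 starts in the RefSeq table, so a match is a description and not a bound site. Each window below has 30 bases on the strand of its gene, with the word in capitals.
Osgin1: aggggcccctGCTGACTCAcgcttatgaaa
Srxn1, near the start: aaattcacccTGAGTCAGCggccgggcgcg
Srxn1, further upstream: tctactgagaGCCGACTCAtcctctctggg
Gclm: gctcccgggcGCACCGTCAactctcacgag
Txnrd1: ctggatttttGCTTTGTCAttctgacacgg
Nfe2l2: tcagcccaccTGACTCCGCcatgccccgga
The Osgin1 window lies at chr8:119437038-119437067 on the plus strand and inside the Osgin1 gene of GENCODE M21 but in no exon, and its word reads TGAGTCAGC on the opposite strand, 99 to 91 bases before the start. The window nearer to the Srxn1 start, at chr2:152105469-152105498 on the plus strand, holds the same 9 letters on the strand of the gene. The other windows lie at chr2:152105356-152105385 for Srxn1, chr3:122245413-122245442 for Gclm and chr10:82859104-82859133 for Txnrd1, all on the plus strand. The Txnrd1 window is inside its gene but in no exon, and those of Srxn1 and Gclm are in no annotated gene. The Nfe2l2 window lies at chr2:75704884-75704913 on the minus strand, in an exon of the neighbouring transcript E030042O20Rik. G6pdx also holds TGACNNNGC, inside an annotated exon, and a further match lies after the Srxn1 start. No match stands in the windows of Keap1 and Nqo1. Gclc and Hmox1 have no entry.

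Some libraries stand apart, and these facts touch the results below. The table gives no reads, so the depth behind a value is not known and counting error cannot be computed. TPM summed to about 1000000 in PBS and MDA-MB-231 EV libraries and to between 934986 and 979351 in MCF-10A EV libraries, in which all assembled loci were also at 0. This difference in the table covers the whole group, so it cannot be told apart from the effect of MCF-10A EVs in any comparison that includes them. Mitochondrially encoded genes took 26.3% of TPM in PBS 1 and between 4.96% and 12.1% in the other 8 libraries, which lowers every other gene of PBS 1 on the TPM scale. Saa1, which encodes an acute phase protein and was picked after its values were seen, was at 28585 TPM in MCF-10A EV 1 and at most 1211 TPM elsewhere. Fat markers (3 genes) summed to 307 TPM in PBS 2, the library with the lowest Osgin1, and to at most 6.47 TPM elsewhere. Malat1, also picked after its values were seen, was at 5.66 TPM in MDA-MB-231 EV 2 and between 25.2 and 81.9 TPM elsewhere. The part of either in the members' values was not tested. Hepatocyte markers summed to between 37030 and 93300 TPM, and none of the 5 was at 0 in all libraries.

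Osgin1 was highest after MDA-MB-231 EVs, intermediate after MCF-10A EVs and lowest after PBS. It stood at 31.9, 21.7 and 29.6 TPM in PBS 1 to 3, at 33.4, 41.2 and 35.6 TPM in MCF-10A EV 1 to 3, and at 98.1, 63.7 and 64.5 TPM in MDA-MB-231 EV 1 to 3. No library of a group overlapped a library of a neighbouring group. Group means were 27.7 ± 5.39, 36.7 ± 4.0 and 75.5 ± 19.7 TPM (SD, n = 3 each). Of the 12860 tested genes, 3 (0.0233%) showed the groups in this order without overlap. This order includes the difference for which Osgin1 was chosen, so nothing is read from the share. The other two, named after their values were seen, are Fkbp8, an FKBP family chaperone gene, and Noa1, a mitochondrial GTPase gene. Bulk RNA cannot tell fewer cells of a type from less RNA per cell.

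**Figure D1:**
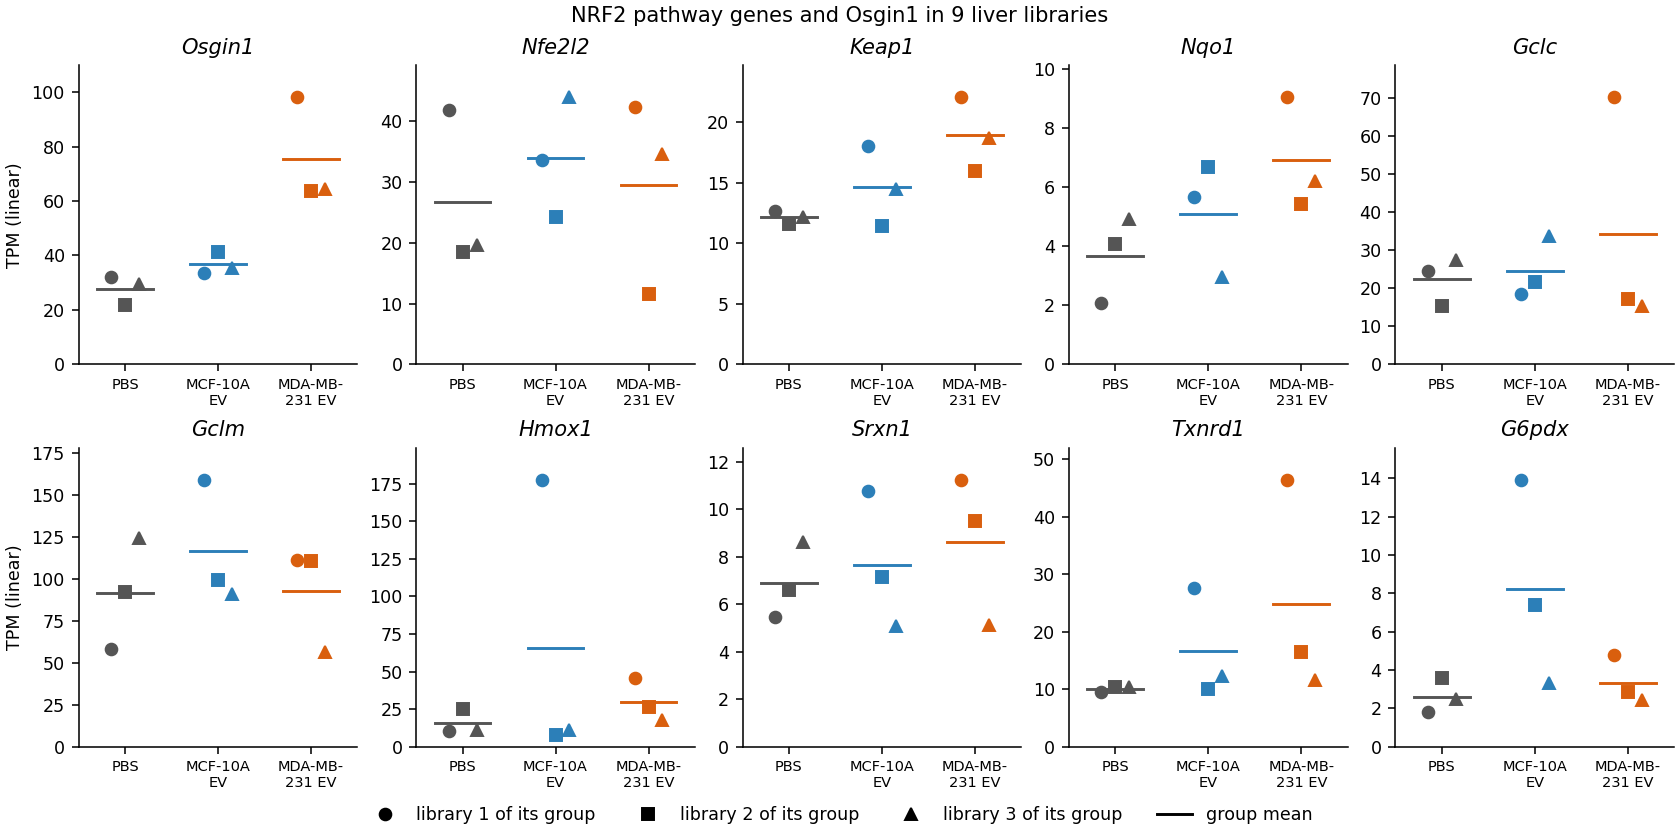
TPM of the 10 genes in the 9 liver libraries, 1 panel per gene with its own linear axis from 0; symbols mark library 1, 2 or 3 of a group and lines mark group means. Osgin1 has 3 groups that do not overlap (21.7 to 31.9, 33.4 to 41.2 and 63.7 to 98.1 TPM), while the mean of Hmox1 after MCF-10A EVs is set by 1 library at 178 TPM.

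The step from MCF-10A EV to MDA-MB-231 EV was 2.06-fold in mean TPM. On the scale of log2(TPM + 1), used for every log2 change here, it was 1.00 ± 0.36 (SE). It rests on the same MDA-MB-231 EV libraries for which Osgin1 was singled out in earlier work on these data, so it is given without a test. For the other members, too, tests between the EV groups share these libraries and are not independent of the choice. Tests of MCF-10A EV over PBS share the PBS libraries with the contrast behind the choice, so the same holds for them. The step from PBS to MCF-10A EV was 0.41 ± 0.36 (limma adjusted p = 1), and 0.24 without PBS 2. MDA-MB-231 EV over PBS gave 1.40 ± 0.36, a 2.72-fold ratio of means. That difference is likewise a description.

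The order of the upper groups held under other scalings and the lower step did not. With TPM rescaled to 1000000 without mitochondrially encoded genes, Osgin1 ran from 25.2 to 45.2 in PBS and from 36.2 to 46.9 after MCF-10A EVs, so these groups overlapped, while MDA-MB-231 EV libraries ran from 67.9 to 106. PBS 1 was the highest PBS library there. With TPM rescaled over all Ensembl features the 3 groups stayed apart, at 22.1 to 32.9, 34.1 to 43.5 and 64.5 to 99.4.

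**Figure D2:**
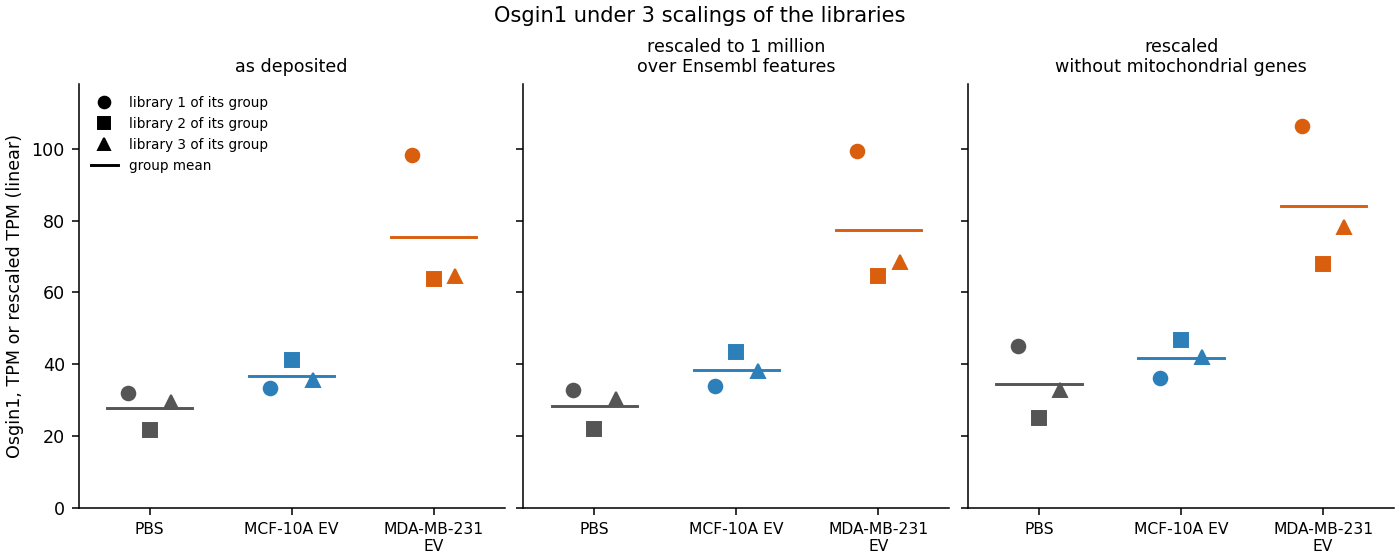
Osgin1 in 9 liver libraries as deposited (TPM), rescaled to 1000000 over Ensembl features, and rescaled after leaving out mitochondrially encoded genes; linear axis from 0, symbols mark library 1, 2 or 3 of a group and lines the group means. PBS and MCF-10A EV overlap in the right panel, where PBS 1 reaches 45.2, and the MDA-MB-231 EV libraries lie above both in every panel.

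Nfe2l2 itself was not ordered like Osgin1. Its levels were 41.8, 18.5 and 19.6 TPM in PBS 1 to 3, 33.6, 24.3 and 43.9 TPM in MCF-10A EV 1 to 3, and 42.3, 11.6 and 34.6 TPM in MDA-MB-231 EV 1 to 3. The groups overlapped fully, and the highest and the lowest library of PBS lay more than 2-fold apart (2.26). The log2 change was 0.40 ± 0.54 in MCF-10A EV over PBS and -0.34 ± 0.54 between the EV groups, each with a limma adjusted p of 1. In MDA-MB-231 EV over PBS it was 0.06 ± 0.54. MDA-MB-231 EV 2, the library with the lowest Nfe2l2, also had the fewest Ensembl features above 0, 17403.

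Keap1, the gene of the NRF2 inhibitor, was steadier within groups than Nfe2l2. It stood at 12.7, 11.6 and 12.2 TPM in PBS 1 to 3, at 18.0, 11.5 and 14.5 TPM in MCF-10A EV 1 to 3, and at 22.1, 15.9 and 18.7 TPM in MDA-MB-231 EV 1 to 3. All MDA-MB-231 EV libraries exceeded all PBS libraries, and MCF-10A EV libraries overlapped both. The log2 change was 0.59 ± 0.34 in MDA-MB-231 EV over PBS and 0.36 ± 0.34 between the EV groups (limma adjusted p = 1 for the latter), the last being 0.20 without MCF-10A EV 2. Without mitochondrially encoded genes in the scaling, Keap1 overlapped between PBS and MDA-MB-231 EV (13.5 to 18.0 against 17.0 to 23.9). The ratio of Nfe2l2 to Keap1 TPM within a library was 2.17 ± 0.975 in PBS, 2.34 ± 0.611 in MCF-10A EV and 1.5 ± 0.666 in MDA-MB-231 EV (SD, n = 3 each), and the libraries of the groups overlapped.

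Nqo1, which reduces quinones and is the most used readout of NRF2, was low in every liver. It was at 2.06, 4.07 and 4.92 TPM in PBS 1 to 3, at 5.68, 6.69 and 2.94 TPM in MCF-10A EV 1 to 3, and at 9.04, 5.44 and 6.22 TPM in MDA-MB-231 EV 1 to 3. MDA-MB-231 EV and PBS libraries did not overlap, with a gap of 4.92 to 5.44 TPM between them. The log2 change was 0.78 ± 0.42 in MDA-MB-231 EV over PBS. It was 0.38 ± 0.42 in MCF-10A EV over PBS and 0.40 ± 0.42 between the EV groups, with limma adjusted p of 1 for both. The first was 0.10 without PBS 1 and the second 0.11 without MCF-10A EV 3.

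Gclc and Gclm encode the catalytic and the modifier subunit of glutamate-cysteine ligase, the first enzyme of glutathione synthesis. Gclc was at 24.5, 15.5 and 27.4 TPM in PBS 1 to 3, at 18.4, 21.7 and 33.6 TPM in MCF-10A EV 1 to 3, and at 70.2, 17.2 and 15.4 TPM in MDA-MB-231 EV 1 to 3. The value of 70.2 TPM stands alone: without MDA-MB-231 EV 1 the log2 change of Gclc against PBS went from 0.28 to -0.40, and against MCF-10A EV from 0.16 to -0.52. Gclm was the most abundant of the 10 genes, with a mean of 100.3 TPM over all libraries.

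Gclm was at 58.1, 92.1 and 124 TPM in PBS 1 to 3, at 159, 99.2 and 91.0 TPM in MCF-10A EV 1 to 3, and at 111, 110 and 56.7 TPM in MDA-MB-231 EV 1 to 3. Its groups overlapped in every comparison, with log2 changes of 0.37 ± 0.45 (MCF-10A EV over PBS), -0.34 ± 0.45 (between the EV groups) and 0.02 ± 0.45 (MDA-MB-231 EV over PBS). For Gclm the first was 0.08 without PBS 1 and the second -0.03 without MDA-MB-231 EV 3. The limma adjusted p was 1 for both subunits in both comparisons tested. The balance of the subunits was not constant: the ratio of Gclc to Gclm TPM ran from 0.116 in MCF-10A EV 1 to 0.630 in MDA-MB-231 EV 1, and from 0.168 to 0.421 within PBS.

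Srxn1 encodes sulfiredoxin, which repairs oxidized peroxiredoxins, and Txnrd1 the cytosolic thioredoxin reductase. Srxn1 was at 5.46, 6.59 and 8.61 TPM in PBS 1 to 3, at 10.8, 7.14 and 5.08 TPM in MCF-10A EV 1 to 3, and at 11.3, 9.52 and 5.14 TPM in MDA-MB-231 EV 1 to 3. Its promoter window holds the same 9 letters as that of Osgin1. Its groups overlapped in every comparison, and its log2 changes lay between 0.10 and 0.25 with an SE of 0.41. Txnrd1 was at 9.45, 10.3 and 10.4 TPM in PBS 1 to 3, at 27.6, 10.1 and 12.3 TPM in MCF-10A EV 1 to 3, and at 46.5, 16.5 and 11.7 TPM in MDA-MB-231 EV 1 to 3. Both EV groups spread widely while PBS did not, and MDA-MB-231 EV lay above PBS without overlap. The log2 change of Txnrd1 against PBS was 0.99 ± 0.54 after MDA-MB-231 EVs, and 0.43 without MDA-MB-231 EV 1. It was 0.55 ± 0.54 after MCF-10A EVs (limma adjusted p = 1), and 0.14 without MCF-10A EV 1. The difference between the EV groups was 0.44 ± 0.54, and -0.12 without MDA-MB-231 EV 1.

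G6pdx, glucose-6-phosphate dehydrogenase, opens the pentose phosphate pathway and supplies NADPH. It was at 1.79, 3.58 and 2.48 TPM in PBS 1 to 3, at 13.9, 7.37 and 3.33 TPM in MCF-10A EV 1 to 3, and at 4.78, 2.83 and 2.42 TPM in MDA-MB-231 EV 1 to 3. It was the member with the largest log2 change in MCF-10A EV over PBS, 1.2 ± 0.49 (limma adjusted p = 1), though MCF-10A EV 3 lay within the PBS range. Without MCF-10A EV 1 that change was 0.76. Between the EV groups it was -0.95 ± 0.49 (limma adjusted p = 1) and -0.51 without MCF-10A EV 1. Its retrocopy G6pd2 was listed at 0 in every library.

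Hmox1 encodes heme oxygenase 1, which degrades heme and is abundant in macrophages that clear red cells. It was at 10.6, 24.9 and 11.4 TPM in PBS 1 to 3, at 178, 7.79 and 10.99 TPM in MCF-10A EV 1 to 3, and at 45.4, 26.7 and 17.9 TPM in MDA-MB-231 EV 1 to 3. MCF-10A EV 1 stood 22.8-fold above the lowest library, which is in the same group, and the groups overlapped in every comparison. The log2 change in MCF-10A EV over PBS was 0.78 ± 0.97 (limma adjusted p = 1) and became -0.59 without MCF-10A EV 1. The difference between the EV groups was 0.12 ± 0.97 (adjusted p = 1), and 1.5 without that library. MDA-MB-231 EV over PBS gave 0.90 ± 0.97.

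Markers of macrophages, neutrophils and red cells were also highest in MCF-10A EV 1. The 10 Kupffer cell and macrophage markers summed to 2164 TPM there and to between 310 and 368 TPM in the other two of its group. Their sums ran from 315 to 682 TPM in PBS and from 571 to 856 TPM in MDA-MB-231 EV. The 5 neutrophil markers summed to 4436 TPM in that library and to at most 204 TPM elsewhere, and the 4 erythroid markers to 14690 TPM against at most 3817 TPM. Every marker of these 3 lists was above 0 in at least 1 library. Their part in the Hmox1 values was not tested.

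**Figure D3:**
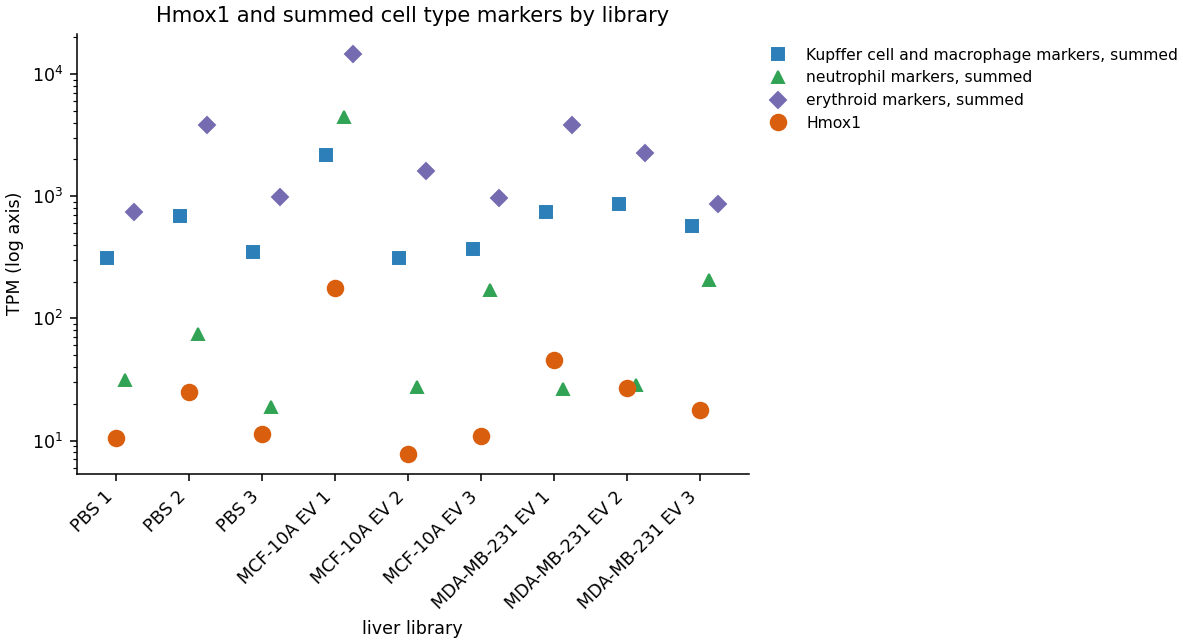
Hmox1 and the summed TPM of Kupffer cell and macrophage (10 genes), neutrophil (5) and erythroid (4) markers in each liver library, on a log axis, with points set slightly apart sideways. All of these reach their highest value in MCF-10A EV 1, where Hmox1 is at 178 TPM.

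Across the 10 genes, most of the highest levels came from 2 libraries. MDA-MB-231 EV 1 held the highest level of 6 of them (Osgin1, Keap1, Nqo1, Gclc, Srxn1 and Txnrd1), and all 10 were above their own mean there. MCF-10A EV 1 held the highest level of 3, and no PBS library the highest of any. No such counts were made for all tested genes. The members were chosen with MDA-MB-231 EV against PBS known, so nothing is read from the counts. In MDA-MB-231 EV 1 the median deviation of the 10 genes from their own means was 0.68 on the log2 scale, against 0.27 for all tested genes in that library. MDA-MB-231 EV 3 had a median of -0.29 for the members and 0.23 for all tested genes, and MDA-MB-231 EV 2 had 0.14 and -0.24. Stellate cell markers (4 genes) summed to 224 TPM in MDA-MB-231 EV 1 and to at most 94.1 TPM elsewhere. Markers of sinusoidal endothelium (4 genes) summed to 162 TPM there and to at most 120 TPM elsewhere, and like Osgin1 they were higher in all MDA-MB-231 EV libraries (72.7 to 162 TPM) than in all MCF-10A EV libraries (39.4 to 52.2 TPM), with PBS at 49.5 to 120 TPM. All of these markers were above 0 in at least 1 library, and their part in the members' values was not tested. Of the members, Osgin1 alone was above the highest PBS and MCF-10A EV library in all 3 MDA-MB-231 EV libraries. Osgin1 had been singled out for these libraries in earlier work, so this in part restates the choice.

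**Figure D4:**
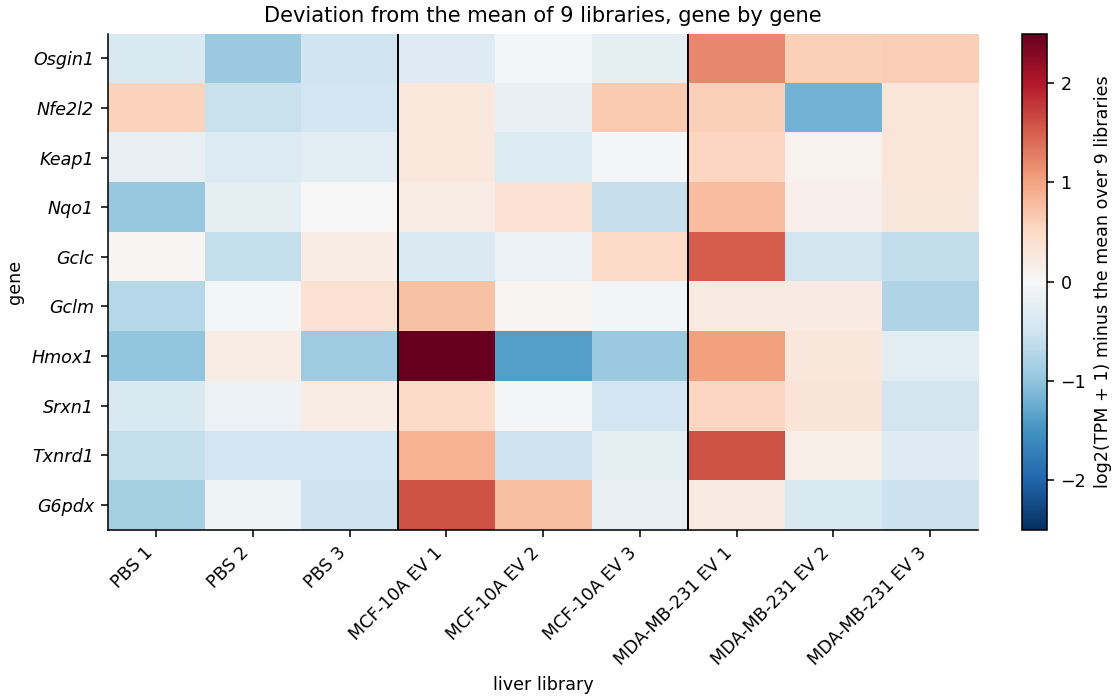
Deviation of log2(TPM + 1) from its mean over 9 libraries, for each gene (rows) in each liver library (columns); red is above and blue below the mean. MDA-MB-231 EV 1 is above the mean for all 10 genes, and the first row, Osgin1, is above it in all MDA-MB-231 EV libraries.

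With Osgin1 left aside between the EV groups, no member passed the limma threshold in either comparison tested. Of 12860 genes, 25 (0.194%) were called in MCF-10A EV over PBS and 28 (0.218%) between the EV groups. Called higher were 0.0544% and 0.14%. G6pdx alone of the 10 members had an unadjusted limma p under 0.05 in MCF-10A EV over PBS, against 3.2% of all tested genes. With Osgin1 again left aside, no member did between the EV groups, against 3.83% of all tested genes. The calls split into 7 higher and 18 lower in the first comparison (12 and 18 with quantile normalization). With the replicate number as a block, 15 genes were called in the second, and 12 in a blocked fit of those groups alone. For MDA-MB-231 EV over PBS no gene passed (0%), where 1.55% had an unadjusted p under 0.05.

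All 10 members were above 0 in MCF-10A EV over PBS, with a median log2 change of 0.39 beside 0.07 for all tested genes, of which 56.78% were above 0; with array weights Nqo1, Gclm, Hmox1 and Srxn1 were below 0. Between the EV groups 7 members were above 0, with a median of 0.15 beside 0.17 for all tested genes, of which 65.05% were above 0; with quantile normalization it was 4 members. In MDA-MB-231 EV over PBS 10 were above 0 (7 with quantile normalization, 8 without mitochondrially encoded genes), with a median of 0.43 beside 0.21 for all tested genes, of which 69.74% were above 0. These comparisons share libraries, so their values are not independent of each other. MCF-10A EV over PBS uses the PBS libraries of the comparison known when the genes were chosen. Its values are therefore not independent of the choice. Quantile normalization moved the median of all genes from 0.17 to 0.00 in the second and from 0.21 to 0.04 in the third comparison, and scaling without mitochondrially encoded genes moved the third to 0.10.

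Few members had groups without overlap. In MCF-10A EV over PBS 1 member, Osgin1, was higher without overlap, against 2.95% of all tested genes. Rescaled over Ensembl features Txnrd1 joined it, and without mitochondrially encoded genes no member was left. Between the EV groups it was again 1 member, Osgin1, against 4.73%, a count from libraries for which Osgin1 was singled out. In MDA-MB-231 EV over PBS it was 4 (Osgin1, Keap1, Nqo1 and Txnrd1) against 5.23%, a count from the contrast known when the genes were chosen, from which nothing is read. No member was lower without overlap, and counted in either direction the shares of all tested genes were 7.69%, 6.53% and 6.03% in these 3 comparisons in turn. Set side by side by library number, which is treated as pairing the EV groups, Osgin1, Keap1 and Srxn1 were higher after MDA-MB-231 EVs in all 3 pairs, against 19.4% of all tested genes. G6pdx was lower in all 3, against 6.92%. These pairs use the same MDA-MB-231 EV libraries, so they are not independent of the choice either.

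**Figure D5:**
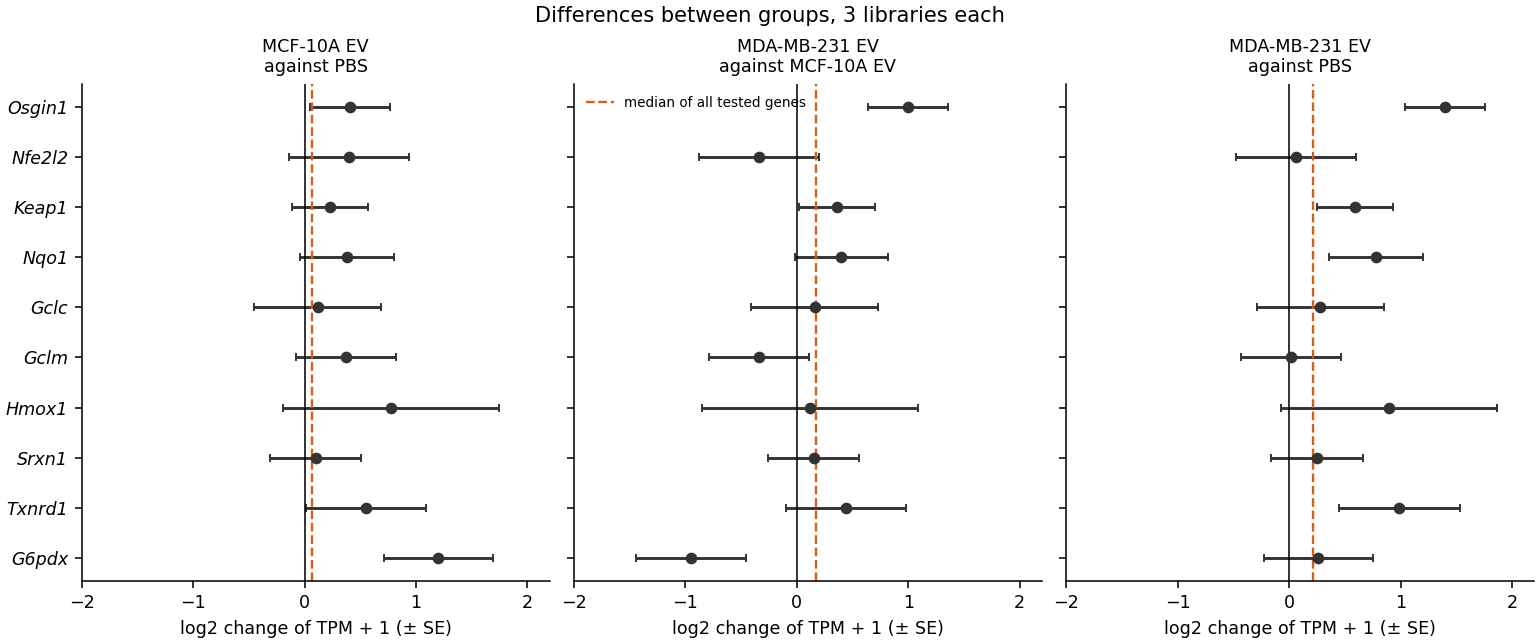
Log2 change of TPM + 1 with its standard error (limma, 3 libraries per group) for the 10 genes in 3 comparisons; the solid line is 0 and the dashed line the median of all tested genes. Osgin1 is at 0.41, 1.00 and 1.40, and G6pdx changes sign between the first comparison (1.2) and the second (-0.95).

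The wider pathway was read from 5 lists of 50 genes. None of their tested genes was called in any comparison. The shares over all tested genes were 0.194% in MCF-10A EV over PBS, 0.218% between the EV groups and 0% in MDA-MB-231 EV over PBS. With shares this low, an absence of calls says little about the lists. Of the 8 genes that control NRF2, all tested, 3 were above 0 in MCF-10A EV over PBS (median -0.11) and 6 between the EV groups (median 0.30). Sqstm1, the autophagy adaptor that sequesters KEAP1, was the most abundant, at 193 ± 77.9 TPM in PBS, 235 ± 28.9 in MCF-10A EV and 230 ± 79.6 in MDA-MB-231 EV. Rbx1, the RING subunit of the ligase, was at 58.2 ± 27.9, 64.3 ± 10.8 and 40.2 ± 10.7 TPM in that order, the EV groups without overlap. Nfe2l1, the relative of NRF2 that controls proteasome genes, was at 18.5 ± 1.56, 22.8 ± 4.62 and 31.4 ± 19.5 TPM.

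Bach1, the repressor that competes with NRF2 at antioxidant response elements, was lower after MCF-10A EVs than in both other groups without overlap; it was picked out after its values were seen. It was at 15.5, 10.7 and 7.83 TPM in PBS 1 to 3, at 4.58, 3.01 and 3.59 TPM in MCF-10A EV 1 to 3, and at 16.8, 6.41 and 13.0 TPM in MDA-MB-231 EV 1 to 3. The log2 change was -1.35 ± 0.43 in MCF-10A EV over PBS (limma adjusted p = 0.763) and 1.39 ± 0.43 between the EV groups (0.823). Neither passed, and with array weights the first did (-1.08, limma adjusted p = 0.0194). The list genes Txn1 and Gstm2, also picked out after their values were seen, went the other way. Their MCF-10A EV libraries lay above every library of both other groups. Txn1 ran from 303 to 360 TPM there, from 66.6 to 297 TPM in PBS and from 92.7 to 189 TPM in MDA-MB-231 EV. Gstm2 ran from 218 to 287, from 68.2 to 210 and from 124 to 205 TPM in that order.

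Of the 10 glutathione and thioredoxin genes 8 were tested, since Slc7a11, the cystine importer, reached at most 0.05 TPM and Gpx2 at most 1.64 TPM. All 8 were above 0 in MCF-10A EV over PBS (median 0.45) and 6 between the EV groups (median 0.15). Gpx1, which reduces hydrogen peroxide, spread from 141 to 2563 TPM within PBS and from 252 to 4414 TPM within MDA-MB-231 EV. Gpx4, which reduces lipid peroxides, stayed between 326 and 672 TPM in all libraries. The peroxiredoxin Prdx1 was at 253 ± 183 TPM in PBS, 376 ± 279 in MCF-10A EV and 484 ± 317 in MDA-MB-231 EV. The range of Gpx1 and of Prdx1 within each group was wider than any difference between group means.

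The 6 genes of NADPH supply were all tested, with 5 above 0 in MCF-10A EV over PBS (median 0.36) and 2 between the EV groups (median -0.35). Idh1, the cytosolic isocitrate dehydrogenase, was at 157 ± 38.8, 204 ± 57.9 and 162 ± 56.4 TPM after PBS, MCF-10A EVs and MDA-MB-231 EVs. Taldo1, transaldolase, was at 107 ± 49.5, 154 ± 12.8 and 97.4 ± 29.1 TPM, the last 2 groups without overlap. Pgls, which follows G6pdx in the pathway, was at 81.1 ± 28.9, 84.4 ± 3.47 and 100.3 ± 23.0 TPM.

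Of the 22 genes of detoxification, export, heme and iron, 20 were tested, with 14 above 0 in MCF-10A EV over PBS (median 0.14) and 12 between the EV groups (median 0.23). The ferritin genes Ftl1 and Fth1 were at 5601 ± 900 and 1555 ± 690 TPM in PBS, 6104 ± 1578 and 2151 ± 1118 in MCF-10A EV, and 6013 ± 1464 and 2073 ± 843 in MDA-MB-231 EV. The glutathione transferase gene Gstm1 was at 2051 ± 742, 2567 ± 1033 and 1857 ± 480 TPM in that order. Ferritin and transferase genes have near-identical copies, so their levels depend on how shared reads were assigned, which the sources used here do not give.

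Aox1, aldehyde oxidase, had the smallest p of this list in both comparisons and was also picked out after its values were seen. It was at 81.7, 59.7 and 44.2 TPM in PBS 1 to 3, at 4.11, 8.42 and 11.3 TPM in MCF-10A EV 1 to 3, and at 45.7, 27.6 and 199.65 TPM in MDA-MB-231 EV 1 to 3. The MCF-10A EV libraries lay below every library of the other groups. The log2 change was -2.86 ± 0.67 in MCF-10A EV over PBS (limma adjusted p = 0.283) and 2.94 ± 0.67 between the EV groups (0.333). The first passed without MDA-MB-231 EV 3 (limma adjusted p = 0.0190), in a fit of those groups alone (0.0359) and with array weights (0.00130), and in none of the other 18 alternatives.

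Of the 4 superoxide and peroxide enzymes that are not core NRF2 targets, 3 were above 0 in MCF-10A EV over PBS (median 0.22) and 1 between the EV groups (median -0.10). Sod1, the cytosolic superoxide dismutase, was at 2063 ± 995, 2485 ± 960 and 2182 ± 615 TPM in the groups in that order. Catalase, Cat, was at 442 ± 161, 456 ± 83.8 and 516 ± 344 TPM, and the mitochondrial dismutase Sod2 at 104 ± 44.4, 147 ± 41.4 and 139 ± 64.0 TPM. In MDA-MB-231 EV over PBS the medians of the 5 lists, in the order given here, were 0.28, 0.35, 0.12, 0.41 and 0.11, beside 0.21 for all tested genes.

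Genes with levels like those of Osgin1 across the 9 libraries were sought by Pearson correlation of log2(TPM + 1). The other members, predicted genes (Gm and Rik names) and repeated symbols were left out, so no member could appear. The 5 closest genes were on none of the lists above. They were Tmprss6, a liver protease that restrains hepcidin (r = 0.928), Maco1 (0.893), AI661453 (0.891), Scap, the escort protein of the SREBP factors (0.880), and the pseudogene Marcksl1-ps4 (0.877). These values are a description, since the genes were ranked by them and the groups differ in Osgin1. Tmprss6 was at 143, 105 and 139 TPM in PBS 1 to 3, at 122, 134 and 133 TPM in MCF-10A EV 1 to 3, and at 236, 207 and 161 TPM in MDA-MB-231 EV 1 to 3. It shared the high MDA-MB-231 EV libraries with Osgin1, and its other two groups overlapped.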

How the data were processed

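Liver RNA was made into 9 TruSeq RNA libraries, per the labels' protocols. The submitters' processing notes name HISAT2, StringTie and RSEM and the mouse build GRCm39, with no versions or order of use. The authors deposited TPM, already divided by transcript length and library total, in 1 table, used as deposited. Its 6059 assembled loci, all at 0 in the MCF-10A EV libraries, were left out. For genes averaging 1 TPM or more, log2(TPM + 1) was fitted with limma 3.58.1 (R 4.3.3) in 1 model of all 3 groups with a trend in the prior variance, and tests were two-sided. Benjamini-Hochberg adjusted p under 0.05 over all 12860 genes was a call. The fit was tested on simulated data with independent noise for each gene, which hold none of the shifts that whole libraries show here. A fold on this scale understates the change of low genes.

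The members and lists were chosen with earlier results of these data known, above all MDA-MB-231 EV against PBS, so members have no p there, and Osgin1 none between the EV groups. Named genes are the 10 members, the 3 most abundant tested genes of each list and the 5 genes most like Osgin1; exceptions are marked. Deviations from group means correlated at 0.336, 0.110 and 0.436 between same-numbered libraries of the EV groups. Differently numbered EV libraries gave -0.337 to 0.116. Same-numbered libraries gave -0.389 to 0.500 with PBS, and the differently numbered PBS 1 and MDA-MB-231 EV 3 gave 0.625. Numbers were treated as pairing only the EV groups, an inference from these values. Alternatives were other pseudocounts, filters and scalings, array weights, blocks, 2-group fits and left-out libraries.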

Additional observations from a re-analysis of the deposited data

How the results depend on the processing

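With Osgin1 left aside between the EV groups, no member was called under any of 21 alternatives in either comparison tested. Nor was any under a fit added after seeing the data, a blocked fit of the 2 EV groups alone. Counts over all genes did move. In MCF-10A EV over PBS the 25 calls became 40 and 11 with pseudocounts of 0.1 and 5 TPM, 12 with no filter, 548 with array weights, 66 with only the 2 groups compared, and 85 without PBS 1 and MDA-MB-231 EV 3 together. Over single left-out libraries they ran from 14 to 59 (54 without PBS 1, 15 without PBS 3, 14 without MCF-10A EV 3, 59 without MDA-MB-231 EV 3). Between the EV groups the 28 became 11 with a pseudocount of 5 TPM, 17 with a mean of at least 5 TPM, 11 with no filter, 46 with array weights and 17 with only the 2 groups compared. The replicate block gave 15, the blocked fit of 2 groups 12, and left-out libraries 13 to 31 (15 without MCF-10A EV 2, 13 without MCF-10A EV 3, 17 without MDA-MB-231 EV 2); the block changed no call on a member. In MDA-MB-231 EV over PBS the 0 calls became 28 without PBS 1 and MDA-MB-231 EV 3 together, and ran from 0 to 24 over left-out libraries (24 without PBS 1, 5 without MDA-MB-231 EV 3).

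In the 2 comparisons tested, signs turned in 24 of 428 refits of member values, none of them called, and the cause was not tested. The 428 include refits of Osgin1 between the EV groups, which are given without a test. In MCF-10A EV over PBS array weights gave -0.15 for Nqo1, -0.26 for Gclm, -0.13 for Hmox1 and -0.40 for Srxn1. Srxn1 was -0.03 without PBS 1 and MDA-MB-231 EV 3 together. Left-out libraries gave -0.12 to 0.30 for Gclc, -0.59 to 1.58 for Hmox1 and -0.15 to 0.33 for Srxn1. Between the EV groups quantile normalization gave -0.09 for Gclc, -0.25 for Hmox1 and -0.08 for Srxn1, array weights 0.03 for Gclm, and a pseudocount of 5 TPM -0.01 for Hmox1. Left-out libraries gave -0.68 to 0.20 for Nfe2l2, -0.52 to 0.54 for Gclc, -0.68 to 1.5 for Hmox1, -0.08 to 0.44 for Srxn1 and -0.12 to 0.85 for Txnrd1. Osgin1 kept its sign under every alternative, at 0.75 to 1.10 in this comparison, 0.24 to 0.51 in MCF-10A EV over PBS and 1.11 to 1.61 in MDA-MB-231 EV over PBS. With quantile normalization Osgin1 was at 1.11 and Keap1 at 0.34 in the last of these. Untested values of that comparison also turned, over -0.29 to 0.60 for Nfe2l2, -0.40 to 0.73 for Gclc and -0.27 to 0.34 for Gclm. A mean of at least 5 TPM leaves no value for G6pdx. TPM keep no depth, so the precision of low genes such as Nqo1 and G6pdx is not known.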
